A study of Homo sapiens with 25 samples.

Results

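Lamina-associated domains are long stretches of chromatin that contact the nuclear lamina, the protein meshwork under the nuclear envelope. Lamin B1 (LMNB1) is a filament protein of that meshwork, and chromatin immunoprecipitation of LMNB1 recovers these stretches as broad domains. The borders of the control LMNB1 domains are described here for MDA-MB-231, an established line of triple-negative breast cancer. Every start and every end of a domain in the control LMNB1 list on chromosomes 1 to 22 was taken as a border, with 200 kb on either side cut into steps of 20 kb. This gave 818 borders, 409 starts and 409 ends, from 409 of the 410 control LMNB1 domains, out of 3842 domain edges in the 5 domain lists of the series. The borders were selected on the control LMNB1 enrichment, so LMNB1 of the control cells is not a finding about them. Domain length and domain score come from that same control list. All other values come from other libraries or from the annotation.

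The 25 libraries of the series profile PML, LMNB1 and 4 histone marks, plus input. The groups used here were, for PML knockdown cells, LMNB1, H3K9me3, H3K4me3 and H3K27ac, and the same 4 targets for control cells, each with 2 libraries, and PML itself with 3 libraries whose titles give no condition. PML was silenced with a lentiviral short hairpin RNA; what the control cells received is not stated, and all groups are the same line. Each target and condition has 1 deposited list, so no value below has replicates, no test between conditions was possible, and read depth is unknown. The spread given is over the 22 chromosomes, or a 95% Wilson interval that covers counting error only and treats neighbouring borders as independent, which they are not. The names of the peak lists hold ct or pml; ct was taken to mean control and pml to mean PML knockdown, which no label states.

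Domain borders are known in other human cells as places where chromatin changes over a short distance, with active promoters outside and quiet, gene-poor sequence inside. H3K4me3 marks active promoters, H3K27ac marks active promoters and enhancers, and H3K9me3 marks heterochromatin. PML is the scaffold of PML nuclear bodies, and large PML-associated heterochromatic domains have been described in mouse fibroblasts. H3K4me3 was present at the basal markers of the labelled line but did not set them apart from luminal ones. All 6 of the mesenchymal basal markers EGFR, CAV1, MET, VIM, CD44 and AXL had an H3K4me3 peak within 1 kb of the gene start in both lists, and the markers of other cell types PTPRC, CD3E, DCN and PECAM1 had none in either. Of 6 luminal markers, EPCAM, ESR1 and FOXA1 were marked in both lists, PGR in the knockdown list only, and GATA3 and CDH1 in neither. H3K27ac was at all 6 basal promoters in both lists, and of the luminal ones at EPCAM only, in the knockdown list. PML and LMNB1 were themselves marked in both lists and lie far outside the domains, 7010.3 and 1776.9 kb from the nearest border; the degree of silencing cannot be read from these lists.

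Promoters on the 2 sides of the borders differed in CpG, the dinucleotide that is dense in the promoters of widely used genes. The 200 bases upstream of 4 gene starts are printed 5′ to 3′ on the gene's strand, from RefSeq's promoter table for GRCh38.p14, with every CpG in capitals. MRPS14 and TNN face each other across 1 border of chromosome 1, ETNK1 stands next to a border of chromosome 12, and CPHXL2 just within a border of chromosome 16. These borders are among those named below for the highest control H3K4me3 just outside. The outside genes printed were therefore strongly marked by choice. MRPS14 (outside, chr1:175023426-175023625, minus strand) and ETNK1 (outside, chr12:22624971-22625170, plus strand) had H3K4me3 in both conditions. TNN (inside, chr1:175067633-175067832, plus strand) and CPHXL2 (inside, chr16:75677010-75677209, minus strand) had it in neither.
MRPS14: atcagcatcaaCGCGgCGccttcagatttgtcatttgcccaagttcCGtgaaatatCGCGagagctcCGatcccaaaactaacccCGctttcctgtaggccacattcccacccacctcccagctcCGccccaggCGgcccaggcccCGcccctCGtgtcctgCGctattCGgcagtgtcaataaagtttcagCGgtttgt
ETNK1: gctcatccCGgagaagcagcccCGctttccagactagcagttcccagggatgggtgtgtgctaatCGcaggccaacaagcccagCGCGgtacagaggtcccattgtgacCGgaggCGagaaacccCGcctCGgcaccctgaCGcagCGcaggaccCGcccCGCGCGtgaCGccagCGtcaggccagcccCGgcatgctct
TNN: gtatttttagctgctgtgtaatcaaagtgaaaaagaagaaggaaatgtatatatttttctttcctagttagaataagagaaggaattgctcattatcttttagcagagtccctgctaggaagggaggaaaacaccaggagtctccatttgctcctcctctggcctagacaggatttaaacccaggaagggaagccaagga
CPHXL2: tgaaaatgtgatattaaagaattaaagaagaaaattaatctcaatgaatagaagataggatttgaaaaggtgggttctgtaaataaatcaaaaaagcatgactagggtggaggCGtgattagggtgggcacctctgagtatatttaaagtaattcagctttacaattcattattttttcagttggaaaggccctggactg
MRPS14, a protein of the mitochondrial ribosome, has 15 CpG in this stretch, and ETNK1, an ethanolamine kinase, has 18. TNN, which encodes the matrix glycoprotein tenascin N, has 0, and CPHXL2, a homeobox-like gene, has 1. The same difference ran through the promoters near borders. The median was 16 CpG per 200 bases for 1510 gene starts within 200 kb outside, against 4 for 633 starts within 200 kb inside, and 16 for all 19110 starts with sequence. At least 10 CpG were found at 71.4% of promoters outside, 35.9% inside and 67.6% of all. Within the inside group, the promoters with a control H3K4me3 peak had a median of 16 CpG (195 starts) and those without one a median of 2 (438 starts). Within the outside group the medians were 18 with such a peak (1046 starts) and 4 without one (464 starts). CpG thus differed by mark on both sides.

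The 409 domains ran from 238 to 19006 kb in length, with a median of 1394 kb, and their scores, given by the authors without a unit, from 17.8 to 613.4 with a median of 52.9. The list holds called domains only, so stretches just under the caller's threshold cannot be given. Chromosomes carried 8 to 72 borders, with a median of 36. Control LMNB1 domain bounds lie on a 17 kb grid, and those of the knockdown list on a 22 kb grid, so a border is placed no better than about 1 step. The next domain lay at a median of 2125 kb, and for 24 borders it began within the 200 kb outside.

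Gene starts and active marks fell across the border within about 1 step. Protein-coding gene starts stood at 9.72 per Mb in the 200 kb outside and 3.88 per Mb in the 200 kb inside, against 6.93 per Mb over chromosomes 1 to 22. H3K4me3 peaks of the knockdown list stood at 14.6 per Mb outside and 3.39 inside, against 9.79 over the autosomes. Those of the control list stood at 11.7 outside and 2.45 inside, against 7.82. The outside was denser than the inside on 22 of 22 chromosomes for gene starts and for both lists, by 2.51 times for gene starts, 4.32 times for knockdown H3K4me3 and 4.77 times for control H3K4me3 in the pooled windows. H3K27ac peaks gave 22.4 per Mb outside and 6.61 inside in the knockdown list, and 21.9 outside and 6.24 inside in the control list. Their density was also lower inside on all 22 chromosomes, by 3.38 times in the knockdown list and 3.52 times in the control list.

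Of the gene starts in these windows 28.7% lay inside (Wilson interval 26.8 to 30.6%). The share inside was 18.9% for knockdown H3K4me3 peaks (17.6 to 20.4%) and 17.5% for control H3K4me3 peaks (16.0 to 19.1%). It was 22.98% for knockdown H3K27ac peaks (21.8 to 24.2%) and 22.3% for control H3K27ac peaks (21.1 to 23.5%). The intervals of the 2 conditions overlapped for both marks. They cover counting error within 1 list each, so this overlap is no test of a difference between knockdown and control.

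The first 20 kb outside held a local maximum of gene starts and of H3K4me3, but not of H3K27ac. Gene starts reached 13.3 per Mb in that step, against a mean of 9.33 per Mb in the 9 steps farther out, and the step was the denser on 18 of 22 chromosomes. H3K4me3 reached 18.1 peaks per Mb there in the knockdown list, against 14.2 farther out, and was denser on 18 chromosomes. In the control list it reached 14.9, against 11.3 farther out, and was denser on 15 chromosomes. H3K27ac stood at 22.2 peaks per Mb in that step against 22.4 farther out in the knockdown list, and at 21.1 against 22.02 in the control list, with the step denser on 10 and 11 chromosomes. A gene start lay in the first 20 kb outside at 189 borders (23.1%), a knockdown H3K4me3 peak at 245 (30.0%) and a control H3K4me3 peak at 197 (24.1%), so most borders lacked each of them.

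**Figure D1:**
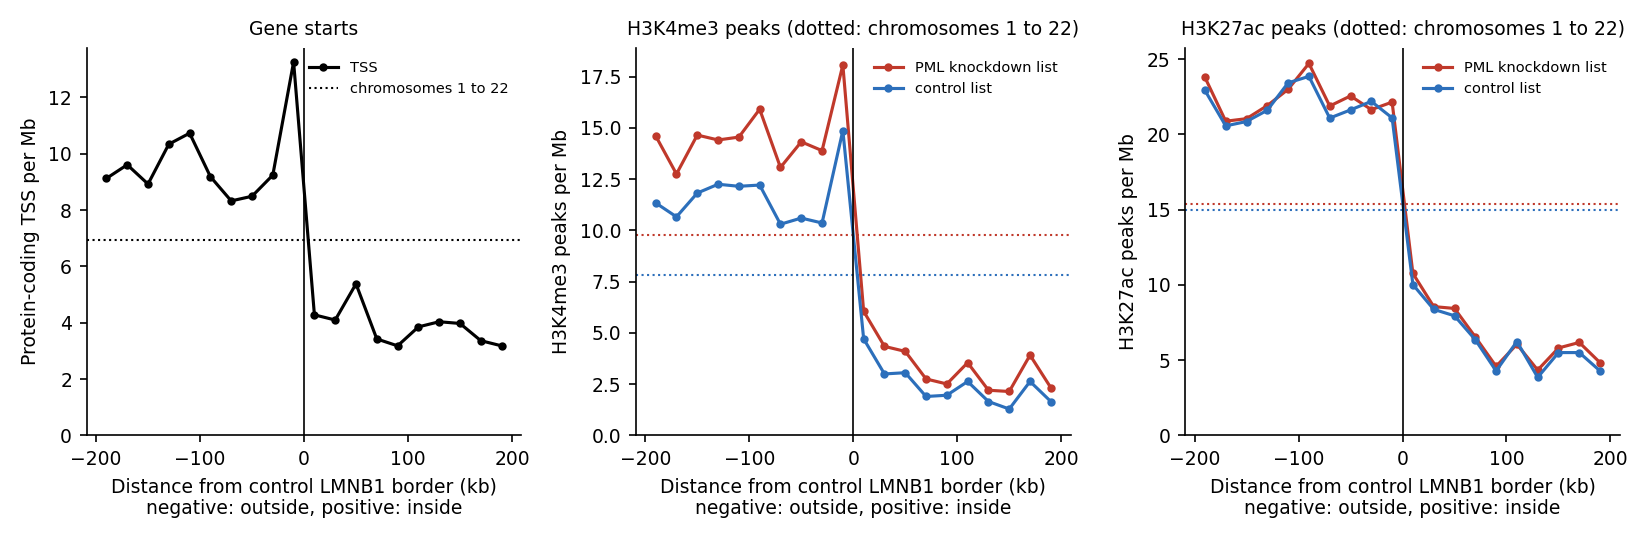
Density per Mb (vertical axes) of protein-coding gene starts, H3K4me3 peaks and H3K27ac peaks in 20 kb steps from 200 kb outside (negative) to 200 kb inside (positive) the 818 control LMNB1 borders; red is the PML knockdown list, blue the control list, dotted lines the density over chromosomes 1 to 22. Gene starts and H3K4me3 are highest in the step next to the border, at 13.3 starts, 18.1 knockdown peaks and 14.9 control peaks per Mb, and all tracks are low inside.

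The first 20 kb inside was intermediate for the marks. It held 4.28 gene starts per Mb, already near the mean of the whole inside. Knockdown H3K4me3 stood at 6.05 peaks per Mb in that step against 3.39 over the whole inside, and control H3K4me3 at 4.71 against 2.45. Base composition fell with them, at 41.8% G and C outside and 39.9% inside, against 41.0% over the autosomes, and lower inside on 22 of 22 chromosomes.

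PML domains covered more of the inside than of the outside, with a slope that ran over the whole window. They covered 16.9% of the sequence outside and 62.1% inside, against 35.2% of the autosomes. The cover was 25.6% in the first step outside, 42.3% in the first step inside and 73.6% in the step 180 to 200 kb inside. On all 22 chromosomes it was higher inside, where it ranged from 26.8% on chromosome 4 to 88.1% on chromosome 19.

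H3K9me3 domains of the control list had the same shape, and those of the knockdown list a shallower one. The knockdown list covered 13.9% outside and 24.9% inside, against 12.9% of the autosomes. The control list covered 17% outside and 50.2% inside, against 22.6%. Knockdown cover was higher inside on 21 chromosomes and control cover on 22; chromosome 4, the exception, had 0 knockdown H3K9me3 cover at its borders. Farthest outside, the 2 lists covered 10.8% (knockdown) and 10.4% (control) of the sequence, and farthest inside 26.8% and 54.6%. The knockdown H3K9me3 list holds fewer domains over the autosomes, 276 against 422 in the control list, and lies on a coarser grid, 35 kb against 23 kb; the part of calling in this difference was not tested.

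Knockdown LMNB1 domains still separated the sides. They covered 12.95% of the sequence outside and 70.8% inside, against 34.1% of the autosomes, and were higher inside on all 22 chromosomes. The step next to the border was covered to 29.6% outside and 51.0% inside, and the innermost step to 77.4%.

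**Figure D2:**
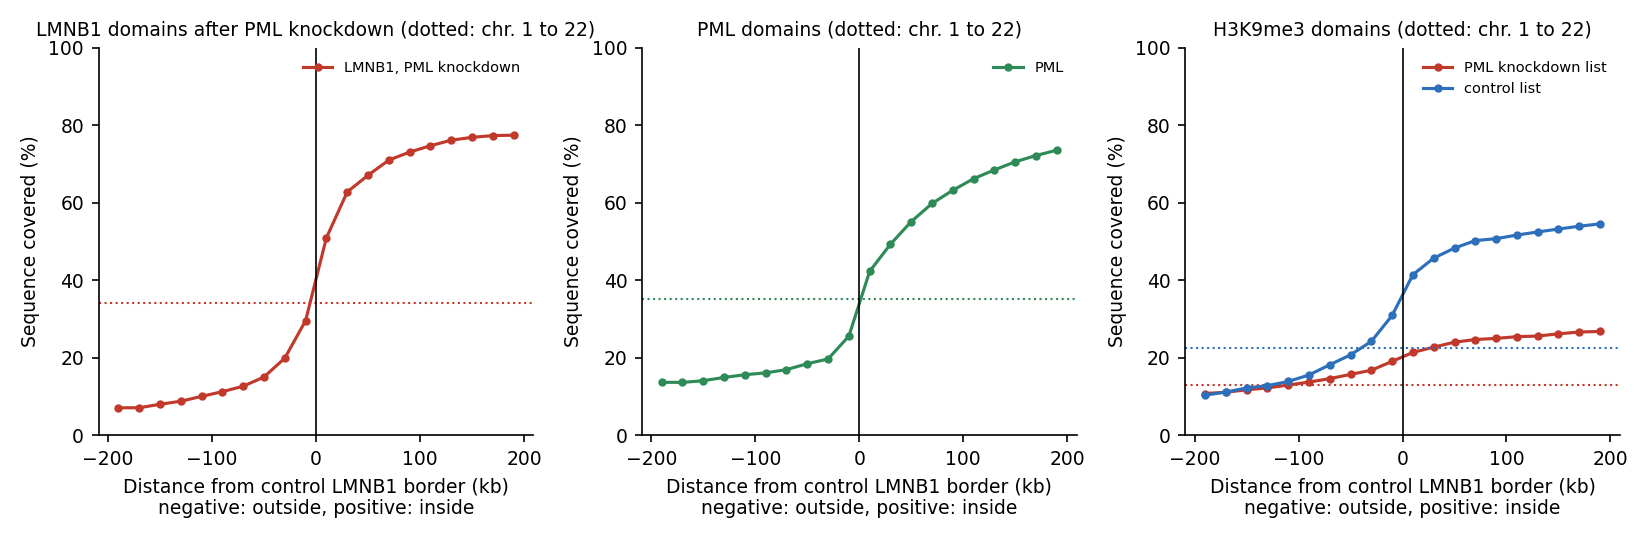
Share of sequence covered (%, vertical axes) by knockdown LMNB1 domains, PML domains and H3K9me3 domains in 20 kb steps from 200 kb outside (negative) to 200 kb inside (positive) the 818 control LMNB1 borders; red is the PML knockdown list, blue the control list, green PML with no condition in its title, dotted lines the cover of chromosomes 1 to 22. Knockdown LMNB1 reaches 77.4% and PML 73.6% in the innermost step, and H3K9me3 reaches 26.8% in the knockdown list, against 54.6% in the control list.

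The nearest edge of the same kind in the knockdown LMNB1 list, start for start and end for end, gave the shift of each border. A border was called held when that edge lay within 22 kb, the knockdown grid. By this measure 313 of 818 borders were held (38.3%, Wilson interval 35.0 to 41.6%). The knockdown edge lay 22 to 200 kb inward at 140 borders (17.1%, 14.7 to 19.9%) and 22 to 200 kb outward at 145 (17.7%, 15.3 to 20.5%). At 220 borders (26.9%, 24.0 to 30.0%) no such edge lay within 200 kb. Inward and outward moves were thus about equal in number, and also in size, with medians of 58.5 kb inward and 59.0 kb outward. Over the 598 borders with an edge within 200 kb the median shift was 1.5 kb inward, with quartiles of 20 kb outward and 19 kb inward. Seen from the knockdown list, 313 of 744 knockdown borders were held (42.1%), and 146 (19.6%) had no control edge within 200 kb.

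**Figure D3:**
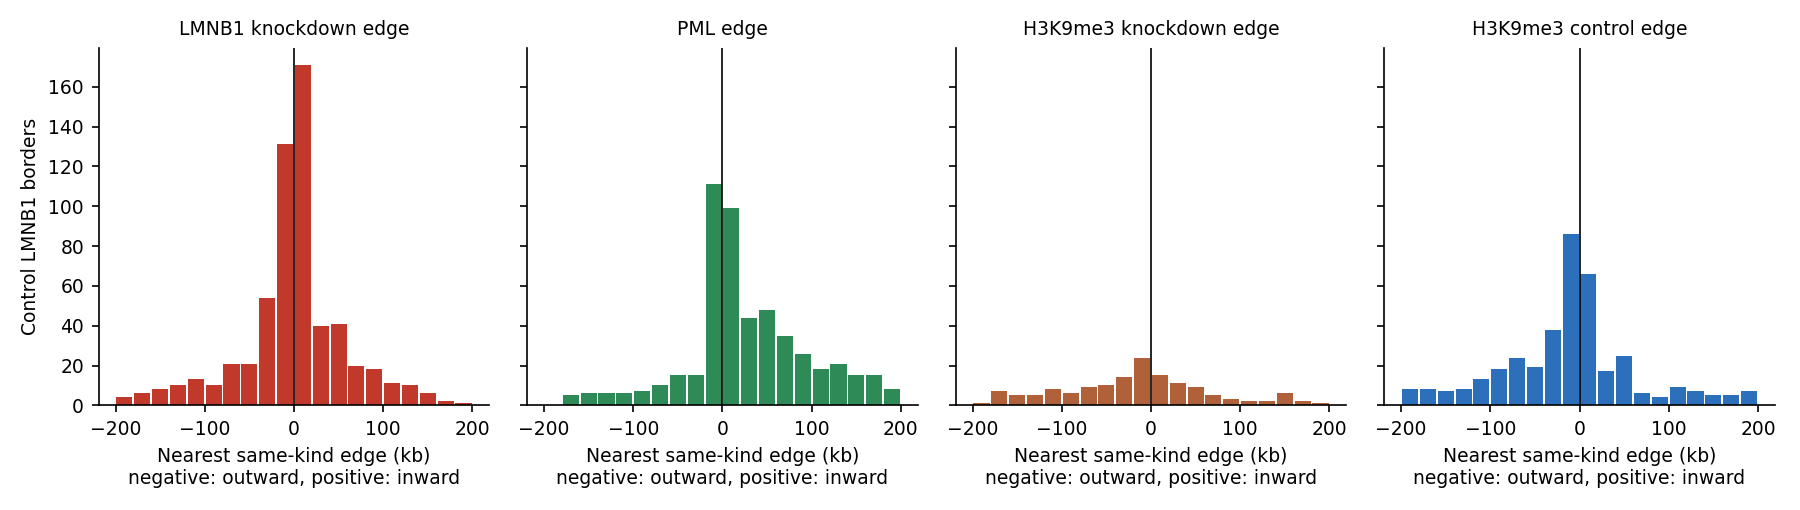
Number of control LMNB1 borders (vertical axis) by the distance to the nearest edge of the same kind (kb, horizontal axes, 20 kb bins, negative outward, positive inward) in the knockdown LMNB1, PML, knockdown H3K9me3 and control H3K9me3 lists. Knockdown LMNB1 edges pile up at 0 with tails of like size on both sides, whereas the PML tail is longer inward: 221 borders have a PML edge 22 to 200 kb inward and 67 one outward.

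Edges of the other lists were placed the same way. A PML edge lay within 22 kb of 222 borders (27.1%), 22 to 200 kb inward at 221 (27.02%), outward at 67 (8.19%) and was not within 200 kb at 308 (37.7%). PML domains thus ended inward of the LMNB1 border more often than outward, with a median of 10.0 kb inward over 510 borders. Knockdown H3K9me3 had an edge within 22 kb of 40 borders and none within 200 kb of 673 (82.3%). Control H3K9me3 had one within 22 kb of 164 borders, 80 inward, 136 outward, and none within 200 kb of 438 (53.5%), with a median of 7.5 kb outward where one was near. These lists differ in grid and in number of domains, so the counts describe each list and were not compared further.

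The share held varied between chromosomes. Its median over the 22 chromosomes was 39.2%, and it ran from 7.89% on chromosome 4, where 3 of 38 borders were held and 21 had no knockdown edge near, to 62.5% on chromosome 21, where 5 of 8 were held. Chromosome 11 had 27 of 44 held and chromosome 6 had 31 of 54. Chromosome 4 also had the lowest PML cover inside (26.8%), the lowest control H3K9me3 cover inside (14.4%) and the lowest G and C content inside (36.7%); the part of these in its low share was not tested.

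Borders with no knockdown edge near belonged to shorter domains of lower score. The median domain score was 68.8 at held borders, 76.3 at inward ones, 61.2 at outward ones and 25.7 where no edge was near, and the median domain lengths were 1615, 1921, 1530 and 850 kb in the same order. Of the 220 borders with no edge near, 181 lay outside every knockdown domain and 39 within one. Counted by domain, 76 of 409 had both borders held, with a median length of 1700 kb and a median score of 73.9. In 75 domains neither border had a knockdown edge near, with medians of 731 kb and 22.1, and 60 of these had no knockdown LMNB1 cover at all. Only 2 of the 75 lay wholly inside a knockdown domain. The 60 without cover had a median score of 21.2, near the lowest score in the control list, 17.8. The part of calling in their absence from the knockdown list was not tested.

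Borders with PML cover on the inside only had a larger share held than those with PML on both sides or on neither. Borders whose 200 kb inside was covered to at least 50% by PML domains and whose outside was not numbered 403, of which 188 were held (46.7%) and 78 had no knockdown edge near (19.4%). Where PML covered neither side to 50%, 88 of 284 were held (31.0%) and 99 had no edge near (34.9%). With PML on both sides 36 of 129 were held (27.9%), and 2 borders had PML on the outside only. PML covered at least 50% of the inside at 71.6% of held borders and 71.7% of outward ones, against 59.3% of inward ones and 55.0% of those with no edge near. Domain score moved with these groups, with medians of 62.4 for PML inside only, 54.8 for both sides and 46.3 for neither.

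Borders were also split by domain score into a low, a middle and a high group of 274, 272 and 272. Within each group the share held was higher with PML inside only than with PML on neither side, with the smallest gap in the high group. These gaps were given no interval and were not tested, and borders with PML on both sides were not split. In the low group 37 of 120 borders with PML inside only were held (30.8%), against 12 of 109 with PML on neither side (11.01%). In the middle group it was 74 of 128 (57.8%) against 42 of 101 (41.6%), and in the high group 77 of 155 (49.7%) against 34 of 74 (45.9%). Over all borders, the share held was 20.1% in the low group, 47.1% in the middle group and 47.8% in the high group, and the share with no edge near was 54.4%, 15.8% and 10.3% in the same order. The domain score comes from the same control libraries that chose the borders.

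The share held was also set against H3K9me3 inside and genes outside. Of the 419 borders with at least 50% control H3K9me3 cover inside, 182 were held (43.4%), against 131 of 399 with less (32.8%). With a control H3K4me3 peak in the first 20 kb outside 81 of 197 were held (41.1%), against 232 of 621 without one (37.4%). That order was not the same in every score group: in the low score group 15 of 60 with a peak were held (25%), against 40 of 214 without (18.7%). In the middle group it was 31 of 71 (43.7%) against 97 of 201 (48.3%), and in the high group 35 of 66 (53.0%) against 95 of 206 (46.1%). With a gene start there 85 of 189 were held (45.0%), against 228 of 629 without one (36.2%). Put the other way, 27.2% of held borders, 17.9% of inward, 17.9% of outward and 24.1% of those with no edge near had a gene start in that step.

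**Figure D4:**
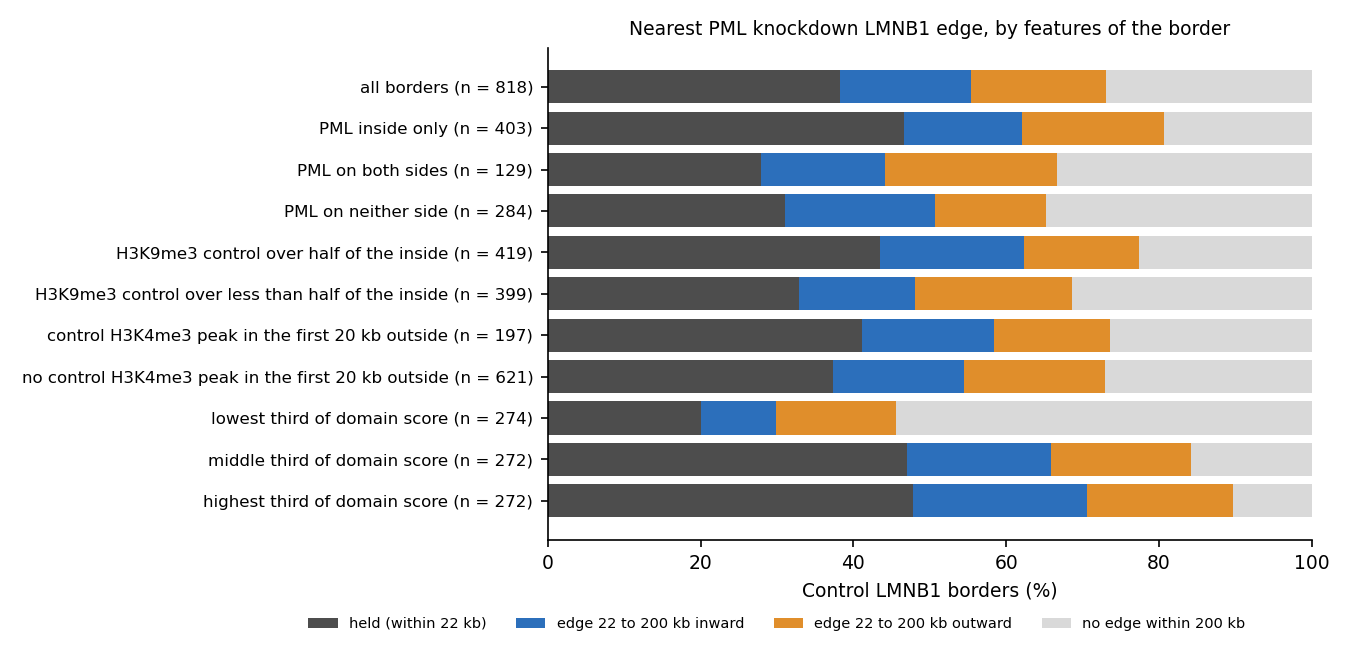
Share of control LMNB1 borders (%, horizontal axis) that were held within 22 kb, had the nearest knockdown LMNB1 edge 22 to 200 kb inward or outward, or had none within 200 kb, for all borders and by PML cover, control H3K9me3 cover, control H3K4me3 peak and domain score (split into 3 groups); n is the number of borders in each bar. The grey part is longest in the group of lowest domain score, at 54.4%, and the held part is 46.7% with PML inside only and 31.0% with PML on neither side.

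Some held borders had a strongly marked promoter just outside and few or no H3K4me3 peaks inside. The 8 with the highest control H3K4me3 fold enrichment in the first 20 kb outside are given, with each fold as the authors' peak caller wrote it; folds of the 2 lists stand side by side and are not compared. FDX1, a mitochondrial ferredoxin, starts 19.1 kb outside the domain start at 110449001 on chromosome 11, with a fold of 70.6 in the knockdown list, against 56.0 in the control list. CENPW, a centromere protein, starts 3.9 kb outside the domain start at 126344001 on chromosome 6, with 34.5 in the knockdown list, against 54.2 in the control list. Both borders had 0 H3K4me3 peaks in the 200 kb inside in either list. On chromosome 16, KARS1, the lysyl-tRNA synthetase, and TERF2IP, a telomere protein, share 1 peak 19.3 and 19.2 kb outside the domain start at 75667001, with a fold of 82.7 in the knockdown list, against 50.9 in the control list. Their domain begins with CPHXL2, whose promoter is printed above, 10.0 kb inside.

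On chromosome 1, MRPS14 starts 8.6 kb outside the domain start at 175032001, with a fold of 114.4 in the knockdown list, against 45.3 in the control list, and TNN 35.8 kb inside. The knockdown edge of this border lay at the same kb, a shift of 0, and the 200 kb inside held 1 H3K4me3 peak in each list, against 3 in each list outside. SMYD2, a lysine methyltransferase, starts 13.2 kb outside the domain end at 214268000 on the same chromosome, with 64.9 in the knockdown list, against 47.1 in the control list. Its border had 7 H3K4me3 peaks outside in the knockdown list, against 1 in the control list, with 0 inside in both. ETNK1 starts 1.8 kb outside the domain start at 22627001 on chromosome 12, with 80.4 in the knockdown list, against 41.7 in the control list. Its control peak runs from 22624485 to 22629210 and so crosses the border. PML domains covered 100% of both sides of the ETNK1 and CENPW borders, so PML cover did not change at either.

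G2E3, a ubiquitin ligase, starts 10.2 kb outside the domain end at 30549000 on chromosome 14, with a fold of 61.4 in the knockdown list, against 39.0 in the control list. RSL24D1, a ribosome biogenesis factor, starts 14.9 kb outside the domain end at 55182000 on chromosome 15, with 70.8 in the knockdown list, against 36.7 in the control list. In all, 54 of the 313 held borders had a promoter with a control H3K4me3 peak in the first 20 kb outside, at any fold. They hold 58 such genes, of which 34 are transcribed away from the domain. A control H3K4me3 peak in that step, at a promoter or not, was found at 25.9% of held borders and 24.1% of all borders. It was thus not particular to held ones.

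Direction of transcription leaned slightly away from the domain outside the borders. Of 215 protein-coding starts in the first 20 kb outside, 120 point away (55.8%, Wilson interval 49.1 to 62.3%), an interval that includes 50%. Over the whole 200 kb outside it was 828 of 1576 (52.5%, 50.1 to 55.0%), and inside 328 of 634 (51.7%, 47.8 to 55.6%). With all genes of the annotation in place of protein-coding ones the share outside fell to the other side of 50%, at 49.8%.

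At 100 of the 220 borders with no edge within 200 kb the nearest same-kind knockdown edge lay 200 to 1000 kb away, 68 inward and 32 outward. Of these, 27 outward and 0 inward ones lay within a knockdown domain. The 68 and 32 count nearest edges and are not moves of the border, since an inward edge can lie past the other end of the domain. It lay 985 kb inward of the start at 46733001 on chromosome 1, in a domain of 442 kb. At the start at 65671001 on chromosome 2 it lay 923 kb inward in a domain of 748 kb. The 6 farthest inward and the 6 farthest outward were looked at. At the domain end at 29376000 on chromosome 3 the knockdown edge lay 962 kb outward, and knockdown LMNB1 covered 100% of both sides. At the domain end at 22321000 on chromosome 12 the edge lay 915 kb inward in a domain of 2618 kb, and the 200 kb inside had 0 knockdown cover. A further case is the domain from 14586001 to 15096000 on chromosome 19, with a score of 18.99, of which both borders lacked a knockdown edge near and whose 200 kb windows inside had 0 knockdown LMNB1 cover. CLEC17A, a lectin, starts 2.9 kb outside its start and is unmarked, and SYDE1 starts 11.4 kb outside its end and is marked in both lists. Both edges found for it lie past its end and bound another domain. Another border of the 12 is the domain start at 46733001 on chromosome 1 with EFCAB14, marked in both lists, 13.9 kb outside and CYP4B1, a cytochrome P450 unmarked in both, 66.0 kb inside.

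Moves within 200 kb were looked up after their values were seen. The largest inward ones were 191 kb at the domain start at 96543001 on chromosome 12, with CFAP54, a cilium protein, 53.4 kb outside, and 172 kb at the start at 113458001 on chromosome 5. MCC, a gene mutated in colorectal cancer, starts 30.5 kb inside that border, is marked in both lists, and lies outside the knockdown domain. The border at 111418000 on chromosome 11 had its knockdown edge 164 kb inward, with POU2AF1, a B-cell coactivator, 38.7 kb inside and unmarked. The largest outward ones were 197 kb at the start at 28203001 on chromosome 12, past CCDC91, marked in both lists and 12.5 kb outside, and 195 kb at the end at 50405000 on chromosome 1, past DMRTA2, a transcription factor gene unmarked in both. The domain end at 61319000 on chromosome 18 had its knockdown edge 171 kb outward, past CDH20.

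Promoters inside were marked less often than outside, and least often 100 to 200 kb from the border. Taking each gene once at its nearest border, 1066 of 1511 promoters outside (70.5%) and 205 of 633 inside (32.4%) had H3K4me3 in the knockdown list, against 64.4% of all 19111. In the control list it was 69.3% outside and 30.8% inside, against 62.5%. H3K27ac marked 62.0% outside and 26.2% inside in the knockdown list, and 59.4% outside and 24.8% inside in the control list.

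With depth, the share marked stayed low to 800 kb inside and was higher again in the cores of long domains. In the knockdown list it was 52.9% of 70 promoters within 20 kb inside, 26.0% of 300 at 100 to 200 kb, 30.1% of 478 at 400 to 800 kb, and 60.1% of 586 beyond 1600 kb. The control list gave 52.9%, 23.7%, 28.2% and 59.4% at the same depths. The Wilson intervals at 0 to 20 kb and at 100 to 200 kb did not overlap within either list. Those of the 2 conditions overlapped at every depth, which is no test between conditions.

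Olfactory receptor genes, a large family of odour receptors that is silent in most tissues, were dense inside the borders, both near them and deeper; the family was chosen after its counts were seen. They made up 24 of 1511 genes outside (1.59%) and 110 of 633 inside (17.4%), against 415 of all 19111 (2.17%). More than 200 kb inside they made up 181 of 1832 (9.88%). By depth they were 7 of 70 genes in the first 20 kb inside (10.0%), 59 of 300 at 100 to 200 kb (19.7%), 95 of 474 at 200 to 400 kb (20.04%), and 84 of 478 at 400 to 800 kb (17.6%), but 2 of 294 at 800 to 1600 kb and 0 of 586 beyond. Of the 110 inside, 48 lie on chromosome 11 at 10 borders, and 1 of 110 had an H3K4me3 peak, in both lists. Without this family 71.7% of promoters outside and 39.0% inside were marked in the knockdown list, and 70.4% outside and 37.1% inside in the control list. Members of the family are alike in sequence, and the treatment of reads that fit several places is not stated.

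**Figure D5:**
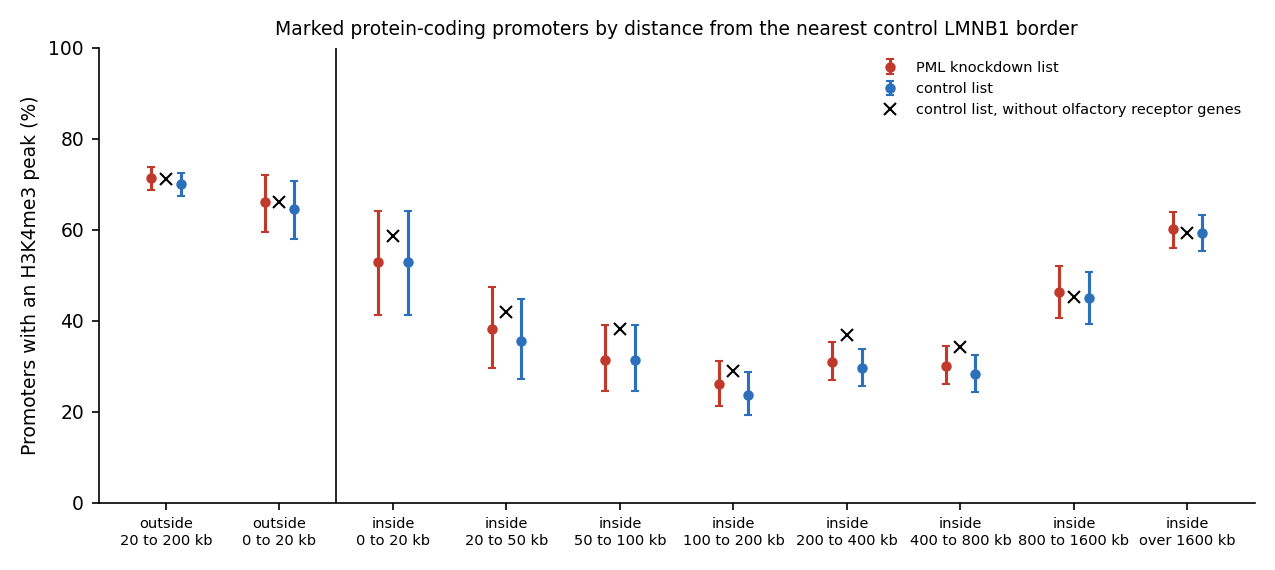
Share of protein-coding promoters with an H3K4me3 peak (%, vertical axis) by zone and distance from the nearest control LMNB1 border, outside left of the line and inside right of it; red points are the PML knockdown list, blue points the control list, bars 95% Wilson intervals, and crosses the control list without olfactory receptor genes. The share falls to 26.0% (knockdown) and 23.7% (control) at 100 to 200 kb inside and stands at 60.1% and 59.4% beyond 1600 kb.

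Genes whose start changed side were marked after knockdown only about as rarely as other genes. Of the 633 genes within 200 kb inside, 423 (66.8%) start in a knockdown domain, against 1635 of 1832 (89.25%) more than 200 kb inside. The other 210 of the 633 (33.2%) start outside every knockdown domain. Among these 210, 80 were marked after knockdown and 78 in control cells, with 2 marked after knockdown only (0.952%). Of the 423 that stayed, 8 were marked in the knockdown list only (1.89%), against 382 of all 19111 genes (2.00%). The 210 were already marked more often in control cells, at 37.1%, against 27.7% of the 423 that stayed. Of the 1511 genes outside, 96 (6.35%) start within a knockdown domain, and 48 of these were marked in the knockdown list, against 47 in the control list, with 1 in the knockdown list only (1.04%); of the 1415 that stayed outside it was 18 (1.27%). In control cells 49.0% of these 96 were marked, against 70.7% of those that stayed outside. More than 200 kb outside, 24 of 15135 genes (0.159%) start within a knockdown domain. Sides were set by the control list alone, so the shares that changed side do not give a net move.

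Peaks found in 1 condition only were slightly more frequent inside than outside. Of knockdown H3K4me3 peaks, 602 of 2282 outside (26.4%, Wilson interval 24.6 to 28.2%) and 182 of 554 inside (32.9%, 29.1 to 36.9%) overlapped no control peak, against 27% of all autosomal knockdown peaks. Of control H3K4me3 peaks, 15 of 1809 outside (0.829%, 0.503 to 1.36%) and 14 of 400 inside (3.50%, 2.10 to 5.79%) overlapped no knockdown peak, against 1.18% of all. The intervals of the sides did not overlap for either list, which is no test, since neighbouring peaks are not independent. The outside stood near the background, and the inside above it in both directions, with only 14 peaks behind the control share inside. This was not particular to the border zone: more than 200 kb inside, 30.3% of knockdown peaks and 3.41% of control peaks had no counterpart.

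For H3K27ac, 497 of 3517 knockdown peaks outside (14.1%) and 202 of 1081 inside (18.7%) lacked a control peak, against 15.5% of all. Of control H3K27ac peaks, 272 of 3447 outside (7.89%) and 114 of 1020 inside (11.2%) lacked a knockdown peak, against 8.43% of all. More than 200 kb inside the shares were 15.4% of knockdown and 12.8% of control H3K27ac peaks. Peaks inside were weaker within their lists, with a median rank from the bottom of 43.9% inside and 52.4% outside for knockdown H3K4me3, and of 49.3% inside and 54.4% outside for control H3K4me3; the part of peak strength in these shares was not tested. The knockdown H3K4me3 list is also longer, 26997 autosomal peaks against 21550 in the control list. With the same number of strongest peaks taken from each list, the share of H3K4me3 peaks near borders without a counterpart was 10.5% in the knockdown list, against 5.30% in the control list, in place of 27.6% and 1.31%.

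At promoters within 200 kb of a border, 46 of 1272 knockdown H3K4me3 peaks had no control counterpart (3.62%, Wilson interval 2.72 to 4.79%), against 4.88% of all autosomal promoter peaks. Of 1316 control promoter peaks 0 lacked a knockdown counterpart, against 0.17% of all. With both sides pooled, promoters near borders were thus not above the background in either list. By side, the knockdown share was 35 of 1075 outside (3.26%, 2.35 to 4.49%) and 11 of 197 inside (5.58%, 3.15 to 9.72%). The interval inside includes the background. The strongest knockdown one by fold was at POU2AF3, a coactivator gene, with a fold of 12.6. It lies 118.6 kb inside the chromosome 11 domain end at 111418000, whose knockdown edge is 164 kb inward, so the peak is outside the knockdown domain. The other three named next also lie outside knockdown domains. ITGA7, a laminin receptor subunit, had 10.9, 67 kb outside a held border, and CYP4X1, a cytochrome P450 in the same chromosome 1 domain as CYP4B1, had 10.3, 151.2 kb inside a border with no knockdown edge near. MARCHF9, a ubiquitin ligase, had 10.1, 198.2 kb outside a held border.

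For H3K27ac, 95 of 1104 knockdown promoter peaks near borders had no counterpart (8.61%), against 8.8% of all, and 28 of 1117 control ones (2.51%), against 2.62% of all. Both shares, with the sides pooled, stood near their background. By side, the knockdown share was 8.36% outside and 10.06% inside (16 of 159 peaks). The control share was 2.39% outside and 3.27% inside (5 of 153 peaks). The strongest knockdown ones were at ZNF530, a zinc finger gene, with a fold of 10.0, TMEM268, a transmembrane protein, with 8.05, TBR1, a transcription factor of cortical neurons, with 7.57, and NPHP4, a cilium protein, with 6.64. Of these, ZNF530 lies 166 kb inside and the other three outside their borders. The TBR1 peak lies 68.3 kb outside a border whose knockdown edge is farther outward, and so within a knockdown LMNB1 domain; the peaks of ZNF530, TMEM268 and NPHP4 do not lie in one. The strongest control ones were at ICE1, part of a transcription elongation complex, with 6.13, ATRNL1 with 5.59, LOX, the collagen cross-linking lysyl oxidase, with 4.90, and USP13, a deubiquitinase, with 4.80. ATRNL1 lies 2.5 kb inside a held border and the others outside. The LOX peak lies within a knockdown LMNB1 domain and the other three do not.

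Most members of lists tied to this line, to PML or to the lamina started more than 200 kb from any border, as did most genes. Over all genes 11.2% start within 200 kb of a border. It was 1 of 20 mesenchymal genes, 1 of 20 metastasis genes, 1 of 19 matrix genes, 2 of 11 basal genes, 1 of 17 luminal genes, 2 of 21 interferon genes and 1 of 15 lamina genes. Inflammatory factors (18), heterochromatin factors (14) and housekeeping genes (13) had 0, and markers of immune and stromal cells had 1 of 13. Cadherins and protocadherins, cell adhesion genes of the cell surface, had 6 of 24, 5 of them outside. The lists are short, and no count was tested against the share of all genes. Members farther away lay on both sides: 6 metastasis genes were more than 200 kb inside and 13 more than 200 kb outside. For cadherins it was 13 and 5, and for all genes 1832 and 15135.

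Of these members, 6 start within 20 kb of a border. KRT19, a luminal keratin, starts 2.7 kb inside the end of a domain whose knockdown edge lies 71 kb outward, and has H3K4me3 in both lists. TRIM22, an interferon-induced ubiquitin ligase, starts 5.2 kb outside a held border and PCDH8, a protocadherin, 4.4 kb outside another, both unmarked in both lists. PCDH7 starts 1.4 kb outside a border with no knockdown edge near, is marked in both lists, and lies within a knockdown domain. CDH20, unmarked in both, starts 14.4 kb outside the chromosome 18 border whose knockdown edge lies 171 kb outward, and CDH4, marked in both, 15.7 kb inside a held border. Farther out, COL1A2 and PCDH10 were chosen after their values were seen. COL1A2, a collagen gene, starts 95.9 kb outside a border whose knockdown edge lies 169 kb outward, and is unmarked in both lists. PCDH10 starts 147.7 kb outside a border with no knockdown edge near and is marked in the knockdown list only.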

How the data were processed

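Per the submitters' processing notes the build is hg38, and the tools listed, with no role given, are MACS2 2.2.7.1, deepTools, BWA 0.7.12-r1039 and Picard 1.104. The 5 deposited domain lists give 1 score per domain, with no unit stated; the domain caller is named only as EDD in the file names. The 4 deposited peak lists give a fold enrichment per peak, a ratio, and a −log10 q-value, in the MACS2 layout, and their peak names show that replicates 1 and 2 were pooled for calling. Depth is not given, so no depth-based precision could be had.

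Lists were read in bins of 1 kb after leaving out assembly gaps of at least 10 kb. Gene starts are those of canonical transcripts of 19111 autosomal protein-coding genes in GENCODE release 44, and a promoter is the start with 1 kb on either side. Peaks were placed by summit and counted as shared when they overlapped by 1 bp. CpG counts over all promoters were read from hg38; all 4 printed promoters matched RefSeq's table. The scripts were checked on simulated borders. The work used matplotlib 3.10.9, scipy 1.17.1, pandas 2.3.3 and numpy 2.4.6 under Python 3.11.15. No tests were run, since there is 1 list per condition. Alternatives covered which borders, genes and peaks were counted and how near an edge had to lie.

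Members, lists and the naming rule were chosen with earlier results of these data known. Named genes were those at the largest shifts, at held borders with the strongest control H3K4me3, list members within 20 kb of a border, and the 4 strongest promoter peaks without a counterpart per mark and direction. COL1A2 and PCDH10, farther from a border, were added after their values were seen. The input libraries and H3K27me3 were not used here.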

Additional observations from a re-analysis of the deposited data

How the results depend on the processing

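In all, 20 results were recomputed under up to 16 settings, which gave 198 comparisons, and 173 stayed within the Wilson interval of the reported value. The other 25 moved past it. For the cover results that interval treats the share of sequence covered as a share of borders, so it is a yardstick and no counting error. Several settings keep most of the borders, so a value that stayed within the interval is no independent support. Using starts only, the share inside was 17.35% for knockdown H3K4me3, 21.4% for knockdown H3K27ac and 20.5% for control H3K27ac peaks, and 15.2% of borders were outward; using ends only, the 3 shares inside were 20.55%, 24.55% and 24.1%. With all genes of the annotation, 38.1% of starts lay inside and 49.8% of those outside pointed away. With a −log10 q of at least 5, control H3K27ac inside was 20.8%, and peaks near borders without a counterpart were 22.85% of knockdown H3K4me3 and 16.7% of knockdown H3K27ac. With equal numbers of peaks these were 10.5% and 13.8%, and 5.30% of control H3K4me3 and 9.69% of control H3K27ac. With an overlap of at least 50% they were 35.1% of knockdown H3K4me3, 23.6% of knockdown H3K27ac and 11.1% of control H3K27ac. Calling a border held within 44 kb gave 50.1% held, 12.1% inward and 10.9% outward, and within 17 kb 34.35% held. From knockdown borders to control edges 42.1% were held and 19.6% had none near. The cause of these shifts was not tested, beyond what each setting changes by construction. Leaving out chromosome 4 or chromosome 19, chosen after seeing the data, using isolated borders or domains of at least 500 kb, joining domains under 100 kb apart, leaving out borders near assembly gaps, and taking the nearest edge of either kind moved none of the results they apply to. No paired analysis was possible because each target and condition has 1 list, whose columns carry no replicate.

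The limits are those of the lists. With 1 list per target and condition, a difference between knockdown and control cannot be set against the spread between cultures. Whether the domain lists were called on pooled replicates is not stated. Differences in depth or in calling between the lists cannot be told apart from the knockdown. A peak or edge that falls just under a caller's threshold reads as absent, and edges are placed on grids of 9 to 35 kb.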
